A study of Mus musculus with 15 samples.

Results

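The vessels that feed a tumor are lined by endothelial cells, and 34 genes that mark these cells or their active states were followed in bulk RNA sequencing of 15 mouse tumors. The genes were taken by symbol, and all 34 were among the 18279 genes of the deposited table. The tumors grew from Renca cells, a mouse renal cell carcinoma line of BALB/c origin, injected in Matrigel under the skin of the back of female BALB/c mice bought at 4 to 6 weeks of age. The control group had 5 tumors, and the knockout group had 5 tumors of *Pbrm1* knockout clone 4 and 5 of clone 18. *Pbrm1* encodes a subunit of the PBAF chromatin remodeling complex. The sample labels call the source of the control tumors Renca parental cells, whereas the series title and the methods name control knockout cells. Each group came from 1 line or clone, so tumors of a group are replicates of a line and not of independently edited cells. The protocol covers untreated mice and mice given a PD-1 antibody, and the labels do not say which of these bore the sequenced tumors. The edit was made in the injected cells and not in the mice whose vessels grew into the tumors.

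Endothelial cells hold together through junction proteins such as VE-cadherin and claudin-5, and they read vessel growth and stability signals through the TIE, endoglin, apelin and Notch pathways. New sprouts are led by tip cells that raise DLL4, apelin, ESM1 and angiopoietin-2. Inflamed endothelium shows selectins and VCAM-1, which catch passing leukocytes, and ERG and the SOXF factors keep the endothelial program on. In renal cell carcinoma these genes are read as a measure of the vascular content of the tumor.

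The values were normalized counts, that is reads per gene divided by a size factor of each tumor, and differences are on the log2(normalized count + 1) scale. The tumors held 32924414 to 49099168 reads on genes. *Pbrm1* averaged 9012 ± 956 normalized counts in the control group (SD, n = 5), 2751 ± 213 in clone 4 (30.5% of control) and 2838 ± 210 in clone 18 (31.5%), and the knockout range of 2483.8 to 3137.5 lay below the control range of 7451.5 to 9870.6. Markers of other cells differed between tumors too. The summed macrophage list ran from 73060.9 to 96410.8 in control tumors and from 52902.6 to 72446.9 in knockout tumors, without overlap. The summed skeletal muscle list was 780.6 to 1952.2 in tumors 9, 10, 11, 14 and 15 and 51.8 to 211.3 in the other 10. In bulk samples, fewer endothelial cells and less RNA per endothelial cell cannot be told apart. Nor can a change in RNA of these genes from other cells, the injected Renca cells among them.

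The main comparison asked whether endothelial RNA differed between *Pbrm1* knockout and control tumors. Of the 34 genes, 4 fell and 0 rose in knockout tumors, and 30 did not pass the test (limma across 18250 genes, adjusted p under 0.05). Over all genes tested, 12.9% were called lower and 9.23% higher, 2356 and 1684 genes, and with quantile normalization these were 1971 and 2265. *Ecscr*, *Eng*, *Tal1* and *Vcam1* fell, whereas *Pecam1*, *Cdh5* and *Tie1*, which mark endothelium as a whole, were not called, and neither was *Emcn*. Beside the 0 genes called higher by limma, 4 genes (*Esam*, *Angpt2*, *Dll4* and *Ramp2*) had a positive difference at an unadjusted p under 0.05, and edgeR and DESeq2 each called 2 (*Esam* and *Angpt2*). The median difference over the 34 genes was 0.065, beside -0.019 over all genes tested, and 20 of the 34 differences were positive. That median went from -0.06 without control tumor 2 to 0.24 without control tumor 3. In 2 genes, *Eng* and *Tal1*, every knockout tumor lay below every control tumor, and in 0 genes above, where 4.87% and 3.11% of all genes did so. With each clone taken alone against the same 5 control tumors, clone 4 gave 4 genes lower and 0 higher in limma, edgeR and DESeq2 (10.0% and 6.79% of all genes in limma), with 1 higher at an unadjusted p under 0.05, *Dll4*. Clone 18 gave 4 lower and 3 higher (14.2% and 10.4% of all genes). The p-values measure the spread between tumors of single lines.

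**Figure D1:**
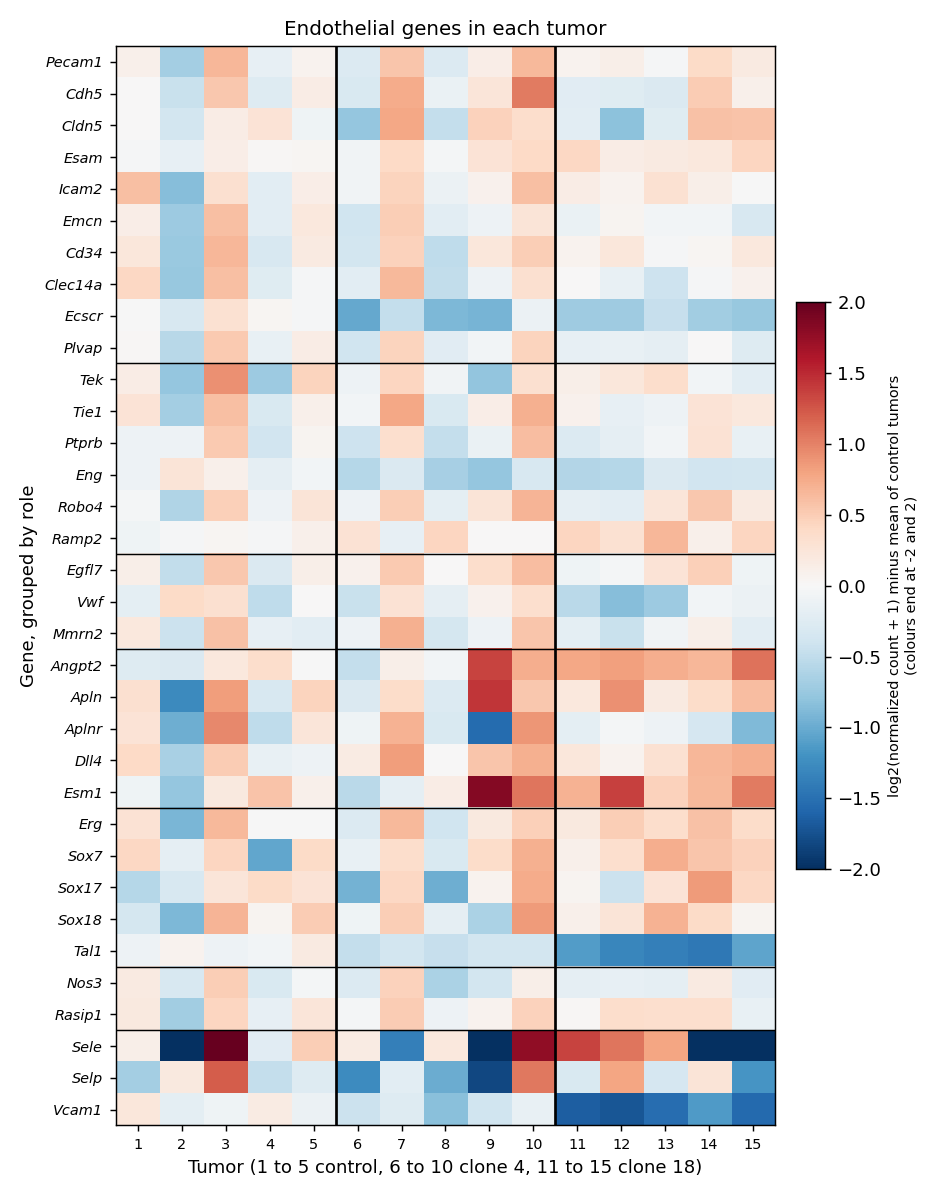
Heat map of the 34 endothelial genes (vertical axis, grouped by role) in the 15 tumors (horizontal axis), with colour giving log2(normalized count + 1) minus the mean of the 5 control tumors. Most genes were pale to red in tumors 3, 7 and 10 and blue in tumor 2, whereas *Ecscr*, *Eng*, *Tal1* and *Vcam1* were blue across the knockout tumors.

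The junction and surface genes came first. *Pecam1*, at chr11:106654217-106750628 (mm10), encodes CD31, an adhesion molecule of endothelial contacts. It was at 2497.4, 1455.9, 3683.3, 2070.7 and 2436.1 normalized counts in control tumors 1 to 5. In clone 4 tumors 6 to 10 it was at 1918.0, 3421.9, 1929.7, 2553.2 and 3651.6, and in clone 18 tumors 11 to 15 at 2433.9, 2529.7, 2295.9, 3039.2 and 2628.6. All 3 groups overlapped, and control tumors alone spread from the lowest to the highest value of the series. Knockout tumors averaged 2640 ± 577 (n = 10) against 2429 ± 814 (n = 5), a difference of 0.155 ± 0.178 (SE) with a 95% interval from -0.22 to 0.53 (limma, adjusted p = 0.593).

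*Cdh5*, at chr8:104101625-104144511, encodes VE-cadherin, the defining adhesion protein of endothelial junctions. Control tumors had 1845.2, 1358.1, 2687.4, 1547.4 and 2033.2 normalized counts, and clone 4 tumors had 1498.6, 3080.8, 1688.0, 2181.1 and 3766.3. Clone 18 tumors had 1577.7, 1563.8, 1514.5, 2611.1 and 1982.7. Clone 4 tumors 7 and 10 were above every control tumor, the other 8 knockout tumors lay within the control range, and the difference was 0.146 ± 0.212 (limma, adjusted p = 0.682).

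*Ecscr*, an endothelial surface receptor tied to cell movement and angiogenesis, fell. It was at 807.7, 651.8, 1002.4, 834.8 and 798.3 normalized counts in control tumors. Clone 4 tumors had 400.2, 580.0, 435.7, 427.8 and 747.5, and clone 18 tumors had 497.0, 495.8, 591.7, 503.2 and 476.9. Only clone 4 tumor 10 reached into the control range, and the other 9 knockout tumors were below all control tumors. The mean went from 819 ± 125 to 516 ± 102, which was 63% of control, and the difference was -0.68 ± 0.13 (limma, adjusted p = 0.00118; exact two-sided permutation p = 0.000666). The size was alike in both clones, -0.69 in clone 4 (limma, adjusted p = 0.00445) and -0.665 in clone 18 (adjusted p = 0.00404), with a difference between the clones of 0.023 (95% interval -0.30 to 0.34). *Ecscr* shares bases with *1700066B19Rik* on the opposite strand, and the strand setting of the counting is not given in the sources used here.

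*Esam*, at chr9:37528078-37538319, encodes an immunoglobulin-type adhesion molecule of tight junctions. Control tumors had 1825.5, 1651.4, 2028.0, 1874.6 and 1905.3 normalized counts. In clone 4 it was at 1771.5, 2434.8, 1801.4, 2235.8 and 2438.5, and clone 18 tumors had 2465.5, 2048.6, 2106.1, 2147.1 and 2507.7. All 5 clone 18 tumors were above every control tumor, whereas clone 4 tumors 6 and 8 lay within the control range. *Esam* rose in clone 18 by 0.28 ± 0.10 (limma, adjusted p = 0.0461) and was at 0.19 ± 0.10 in clone 4 (adjusted p = 0.206). The clones themselves differed by 0.087 (limma, adjusted p = 0.694), and the clone 18 call held in 14 of 24 alternative analyses, with losses without tumor 1, 2, 4, 5, 9, 11, 14 or 15 (adjusted p up to 0.111), in limma without trend (adjusted p = 0.0741) and without the 5 muscle-rich tumors, where the difference was 0.165 (adjusted p = 0.385). In knockout against control the difference was 0.235 (limma, adjusted p = 0.0566), and it passed with upper-quartile scaling (adjusted p = 0.0314) and quantile normalization (adjusted p = 0.0272).

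The other 6 junction and surface genes were *Cldn5*, which encodes the tight junction protein claudin-5, *Icam2*, a ligand of leukocyte integrins, the sialomucins *Emcn* and *Cd34*, the lectin *Clec14a*, and *Plvap*, which forms the diaphragms of fenestrae and caveolae. None was called in any of the 4 comparisons of the reported limma fit. Their knockout against control differences ran from -0.054 for *Plvap* to 0.159 for *Icam2*. *Plvap* averaged 2049 ± 558 normalized counts in control, 2104 ± 563 in clone 4 and 1798 ± 124 in clone 18 tumors.

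Among the receptors, *Eng* fell. *Eng*, at chr2:32646595-32682669, encodes endoglin, a co-receptor for BMP9 and TGF-beta. Control tumors had 3024.3, 3882.3, 3475.6, 2868.5 and 3119.1 normalized counts. The 5 clone 4 tumors had 2194.8, 2665.1, 2043.1, 1903.5 and 2594.4, and clone 18 tumors had 2158.4, 2187.6, 2667.7, 2483.8 and 2530.1. The highest knockout tumor was below the lowest control tumor. The mean was 3274 ± 407 in control and 2343 ± 277 in knockout tumors, 71.6% of control, a difference of -0.48 ± 0.09 (limma, adjusted p = 0.000877; exact two-sided permutation p = 0.000333, the smallest that regroupings of these tumors can give). Clone 4 differed from control by -0.53 (limma, adjusted p = 0.00172) and clone 18 by -0.44 (adjusted p = 0.0046). Without the 5 muscle-rich tumors, which left 2 clone 18 tumors, the clone 18 difference was still -0.43 but did not pass the test (adjusted p = 0.0527). *Eng* shares bases with *Fpgs* on the opposite strand.

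*Ramp2*, at chr11:101246028-101259546, encodes the partner that makes the calcitonin-like receptor an adrenomedullin receptor. Control tumors had 12288.7, 12807.0, 13391.4, 12890.5 and 14015.8 normalized counts. Clone 4 tumors had 15947.0, 11691.5, 17518.4, 13117.6 and 13075.6, and clone 18 tumors had 17505.7, 16162.5, 20804.7, 14079.1 and 17512.6. Every clone 18 tumor was above every control tumor, and clone 4 tumors lay on both sides of the control range. *Ramp2* rose in clone 18 by 0.39 ± 0.11 (limma, adjusted p = 0.0144), was at 0.11 ± 0.11 in clone 4 (adjusted p = 0.551), and did not pass the test between the clones (0.28, adjusted p = 0.172). The clone 18 call held in 25 of 25 alternatives. *Ramp2* overlaps *Vps25* on the same strand.

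The other receptors and the phosphatase were the angiopoietin receptor *Tek*, its relative *Tie1*, the vascular guidance receptor *Robo4*, and *Ptprb*, which encodes the phosphatase VE-PTP that restrains TEK. None of these 4 was called in any comparison. Their knockout against control differences ran from -0.046 for *Ptprb* to 0.172 for *Robo4*. *Tie1* averaged 696 ± 230 normalized counts in control, 826 ± 270 in clone 4 and 698 ± 90.4 in clone 18 tumors.

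The 3 matrix and secreted genes were not called in any comparison of the reported limma fit. *Vwf*, at chr6:125546774-125686679, encodes von Willebrand factor, the platelet tether that endothelial cells store and release. Control tumors had 341.2, 509.1, 490.5, 274.5 and 391.2 normalized counts. In clone 4 tumors it was at 287.4, 476.8, 344.2, 416.4 and 495.7, and clone 18 tumors had 269.4, 215.3, 236.9, 377.9 and 361.6. Clone 18 tumors 11, 12 and 13 were below every control and every clone 4 tumor. The clone 18 difference was -0.46 (95% interval -0.88 to -0.03; limma, adjusted p = 0.11) and the clone 4 difference 0.018 (adjusted p = 0.97). *Egfl7*, a vessel matrix protein gene that hosts miR-126, was at 0.213 in knockout against control, and *Mmrn2*, a CLEC14A ligand of the vessel matrix, at -0.007 (0.022 with upper-quartile scaling).

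In knockout against control tumors, the widest differences among the genes not called were those of *Esm1* and *Angpt2*, both sprouting and tip cell genes. *Angpt2*, at chr8:18690263-18741562, encodes the context-dependent TEK antagonist that loosens vessels. Control tumors had 487.4, 478.2, 670.4, 739.5 and 575.2 normalized counts. The clone 4 values were 415.6, 627.8, 562.0, 1486.0 and 964.7, and clone 18 tumors had 996.0, 1029.8, 959.5, 925.2 and 1235.9. All 5 clone 18 tumors were above the control range, and in clone 4 only tumors 9 and 10 were. *Angpt2* rose in clone 18 by 0.81 ± 0.25, from 590 ± 114 to 1029 ± 122 (limma, adjusted p = 0.0227). The call was lost without tumor 1, 2 or 15 (adjusted p up to 0.0591). In clone 4 the difference was 0.33 (limma, adjusted p = 0.416) and between the clones 0.48 (adjusted p = 0.31). *Angpt2* lies within the span of *Mcph1* on the opposite strand.

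*Esm1*, which encodes the secreted proteoglycan endocan, had a knockout against control difference of 0.65 (limma, adjusted p = 0.151). *Dll4*, the Notch ligand of tip cells, was at 0.43 (adjusted p = 0.0964). *Apln*, which encodes apelin, was at 0.41 (adjusted p = 0.371), and its receptor gene *Aplnr* at -0.19 (adjusted p = 0.746). The 3 genes *Angpt2*, *Apln* and *Esm1* were highest in clone 4 tumor 9, at 1486.0, 1985.4 and 1237.9 normalized counts, while *Aplnr* had its lowest value of the group there, 264.0. Without the 5 muscle-rich tumors, among them tumors 9 and 10, the knockout against control difference was 0.23 for *Angpt2* (limma, adjusted p = 0.558), 0.25 for *Esm1* (adjusted p = 0.655) and 0.26 for *Dll4* (adjusted p = 0.425). The clone 18 difference of *Angpt2* was 0.773 in that setting (limma, adjusted p = 0.0227), with only tumors 12 and 13 left in clone 18. The part of muscle RNA or of what came with it in these values was not tested.

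Of the transcription factors, *Tal1* fell and the other 4 were not called. *Tal1*, at chr4:115056426-115071755, encodes a basic helix-loop-helix factor of blood and endothelial development. Control tumors had 2259.5, 2548.9, 2254.3, 2330.7 and 2753.3 normalized counts. In clone 4 the counts were 1737.7, 1879.6, 1761.6, 1879.6 and 1884.8, and clone 18 tumors had 1120.5, 978.2, 941.1, 897.1 and 1162.1. The 3 groups did not overlap, with control highest, clone 4 next and clone 18 lowest, and the spread within each group was small. The means were 2429 ± 217, 1829 ± 72.7 and 1020 ± 116. The difference from control was -0.41 ± 0.08 in clone 4 (limma, adjusted p = 0.00167) and -1.25 ± 0.08 in clone 18 (adjusted p = 1.14e-08). Clone 18 was lower than clone 4 by -0.85 (limma, adjusted p = 4.44e-06; exact two-sided permutation p = 0.00794, the smallest that 252 regroupings can give). The combined knockout difference was -0.83 ± 0.19 (limma, adjusted p = 0.00399). *Tal1* is also known in red cell and megakaryocyte lineages. The summed red cell list ran from 1130.9 to 3813.5 in control, 3476.3 to 5075.8 in clone 4 and 1390.2 to 6570.9 in clone 18 tumors, and its part in the *Tal1* result was not tested. Of these lineages' genes, *Itga2b* rose in knockout tumors by 0.958 (limma, adjusted p = 0.00154) and *Slc4a1* by 0.773 (adjusted p = 0.0027), against the direction of *Tal1*. *Erg*, an ETS factor of endothelial identity, was at 0.264, and the SOXF genes *Sox7*, *Sox17* and *Sox18* at 0.317, 0.048 and 0.192, with 20 to 73 reads per tumor for *Sox17*.

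*Nos3*, which encodes the endothelial nitric oxide synthase, and *Rasip1*, a RAS-family effector needed for vessel lumens, were not called in any comparison. Their knockout against control differences were -0.126 and 0.176.

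Of the leukocyte adhesion genes, *Vcam1* fell. *Vcam1*, at chr3:116109949-116129688, encodes the ligand of integrin VLA-4, and macrophages and stromal cells also express it. Control tumors had 1903.2, 1415.4, 1535.6, 1816.4 and 1500.3 normalized counts. The clone 4 tumors had 1208.3, 1356.9, 905.2, 1225.4 and 1466.0, and clone 18 tumors had 519.4, 494.6, 566.8, 736.7 and 550.8. Clone 18 lay below both other groups, while clone 4 tumor 10 reached into the control range. The means were 1634 ± 213, 1232 ± 211 and 574 ± 95.3, so clone 18 was at 35.1% of control. The difference was -1.51 ± 0.13 in clone 18 (limma, adjusted p = 3.74e-07), -0.42 ± 0.13 in clone 4 (adjusted p = 0.0356) and -1.10 between the clones (adjusted p = 6.15e-05). The clone 4 call held in 18 of 25 alternatives and was lost without tumor 1, 4, 6, 8 or 9 (adjusted p up to 0.0984), with upper-quartile scaling (adjusted p = 0.052) and in limma without trend (adjusted p = 0.0622). The combined knockout difference was -0.965 ± 0.251 (limma, adjusted p = 0.0103). *Csf1r*, a macrophage marker, also fell, by 0.60 on the log2 scale (limma, adjusted p = 0.00331), and 4 of the 8 genes of the macrophage list fell in knockout tumors (12.9% of all genes). Another of the 8, *Cd68*, was at 0.119 in knockout tumors (adjusted p = 0.607) and rose in clone 18 by 0.378 (limma, adjusted p = 0.018). Of the 8 fibroblast genes, none was called, and all 8 differences were positive in clone 18, with a median of 0.433. In clone 4, 7 of the 8 were negative, with a median of -0.176. The part of macrophage or fibroblast RNA in the *Vcam1* result was not tested. The selectin genes *Sele* and *Selp* had few reads, 0 to 21 and 6 to 68 per tumor, and spread widely within groups. Their knockout against control differences of -0.312 and -0.401 did not pass the test (limma, adjusted p = 0.831 and 0.574).

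**Figure D2:**
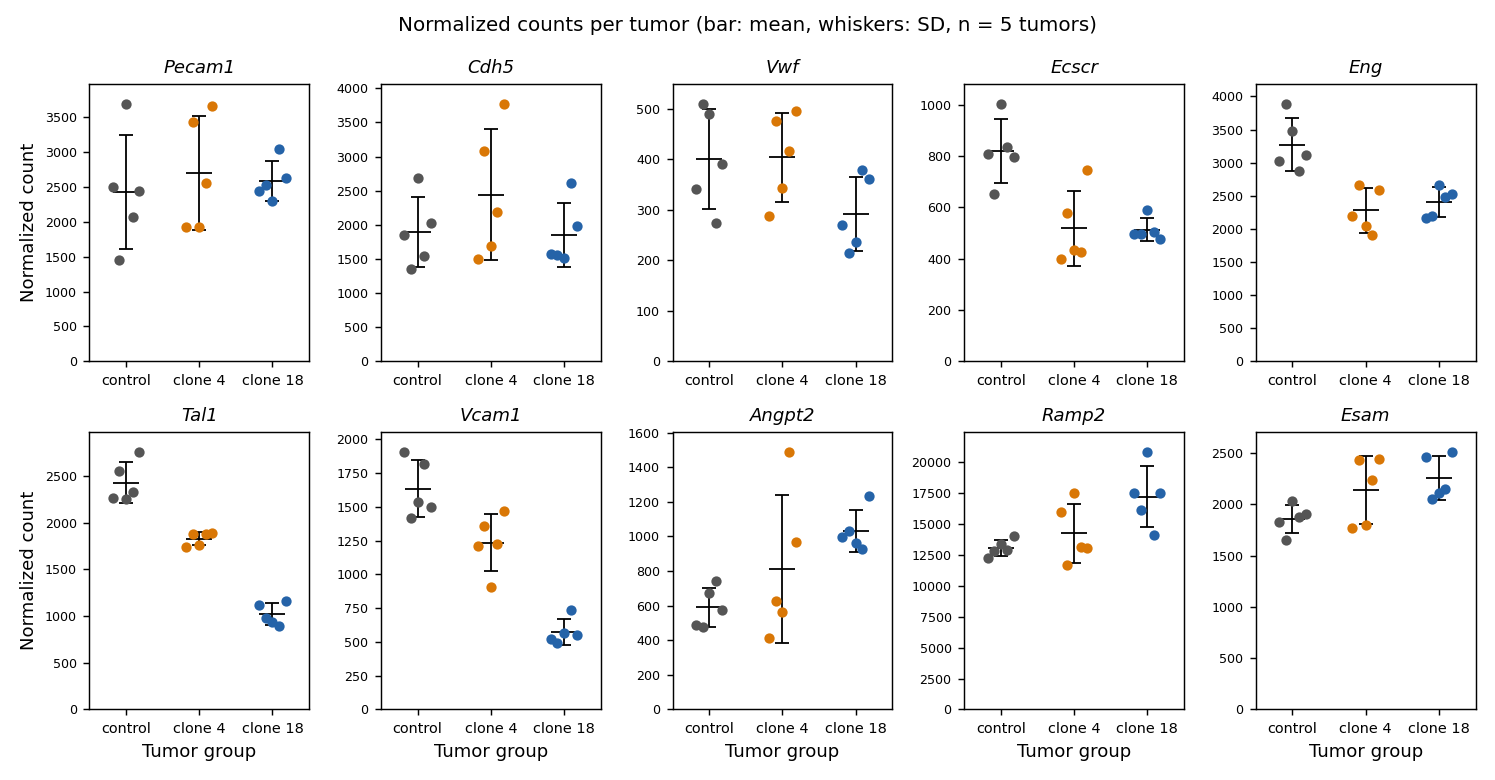
Normalized counts (vertical axes, from 0) of the 10 genes given in every tumor, for control, clone 4 and clone 18 tumors (points: tumors, bars: mean and SD, n = 5). *Tal1* formed 3 separate groups, at 2254.3 or more in control, 1737.7 to 1884.8 in clone 4 and 1162.1 or less in clone 18, whereas *Pecam1* and *Cdh5* overlapped across all 3.

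Between the clones, 2 of the 34 genes were lower in clone 18, beside 2.13% of all genes, and 0 were higher in limma, edgeR and DESeq2, beside 2.49%, with 1 (*Ramp2*) higher at an unadjusted p under 0.05. These 2 were *Tal1* and *Vcam1*. *Angpt2*, *Ramp2* and *Esam*, called in clone 18 but not in clone 4, did not pass the test between the clones, so a difference between the clones was not shown for them.

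**Figure D3:**
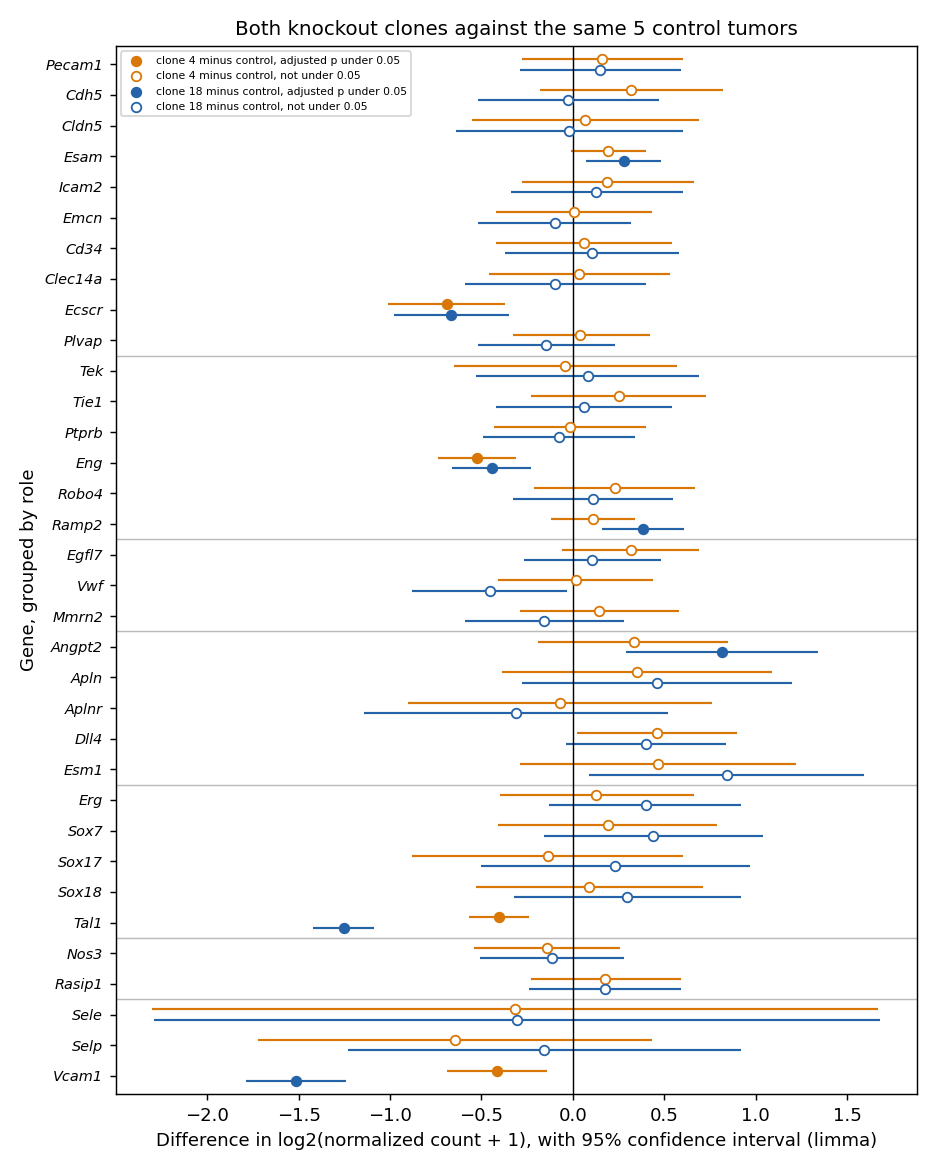
Differences from the same 5 control tumors in log2(normalized count + 1) (horizontal axis) for each gene (vertical axis, by role), for clone 4 (orange) and clone 18 (blue), with 95% confidence intervals and filled points where the limma adjusted p was under 0.05. *Ecscr*, *Eng*, *Tal1* and *Vcam1* were lower in both clones, and *Tal1* and *Vcam1* lay farther from 0 in clone 18.

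Tumors of the same group differed widely in endothelial RNA, and many of the genes were highest or lowest in the same tumors. Among control tumors, tumor 3 was the highest for 24 of the 34 genes and tumor 2 the lowest for 26. Among clone 4 tumors, tumor 10 was the highest for 18 genes and tumor 7 for 12, and tumors 8 and 6 were the lowest for 15 and 12. Clone 18 tumors were closer to each other, and tumor 14 was the highest for 14 genes. A pan-endothelial level, the mean of log2(normalized count + 1) of *Cdh5*, *Pecam1*, *Tie1* and *Esam*, was 10.57 ± 0.36 in control, 10.80 ± 0.42 in clone 4 and 10.68 ± 0.17 in clone 18 tumors. These ranges overlapped.

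Each gene was then set against that level in the same tumor, leaving the gene itself out of the mean. For 29 of the 34 genes the SD within groups was smaller after this subtraction. It went from 0.325 to 0.110 for *Plvap*, from 0.388 to 0.118 for *Pecam1*, from 0.417 to 0.175 for *Cd34* and from 0.375 to 0.167 for *Dll4*. For 5 genes, *Esam*, *Eng*, *Ramp2*, *Tal1* and *Vcam1*, it was larger. The subtraction assumes a change of equal size, so it enlarges the SD of a gene that varies much less than the level, whether or not the gene rises and falls with it. The SD of *Tal1* went from 0.123 to 0.351 and that of *Ramp2* from 0.186 to 0.464. In control tumor 2, the lowest for 26 genes, *Eng* had its highest control value, 3882.3 normalized counts, and in tumor 3, the highest for 24 genes, *Tal1* had its lowest, 2254.3. In clone 4, by contrast, both genes were higher in tumors 7 and 10 than in tumors 6 and 8, as the pan-endothelial level was. These 5 genes were all called in at least 1 comparison, and they had the smallest within-group SD of level of the 34, from 0.123 to 0.226, which narrows the error of their tests. *Ecscr* and *Angpt2* were the called genes whose spread became smaller, and for *Angpt2* it moved little, from 0.454 to 0.445.

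Relative to the pan-endothelial level, *Ecscr* was at -0.90 ± 0.18 in control and -1.75 ± 0.22 in knockout tumors, and every knockout tumor was below every control tumor. With the pan-endothelial level as a covariate in the fit of all genes, *Ecscr* was at -0.78 ± 0.10 (limma, adjusted p = 3.89e-05), *Eng* at -0.51 (adjusted p = 0.000883), *Tal1* at -0.86 (adjusted p = 0.00475) and *Vcam1* at -1.07 (adjusted p = 0.00542). In that fit *Plvap* was also called lower, by -0.22 ± 0.07 (limma, adjusted p = 0.0308), and *Ramp2* higher, by 0.31 ± 0.10 (adjusted p = 0.0326). Of 26 alternatives for knockout against control, *Plvap* was called in this 1 only and *Ramp2* in 2. For clone 18 against control, the fit with the covariate also called *Plvap* lower, by -0.25 ± 0.07 (limma, adjusted p = 0.0199). *Vwf* was called lower there too, by -0.52 ± 0.18 (limma, adjusted p = 0.0398). The 4 genes of the level itself were left out of the fit's calls, and 1 of them, *Esam*, was called higher in clone 18.

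**Figure D4:**
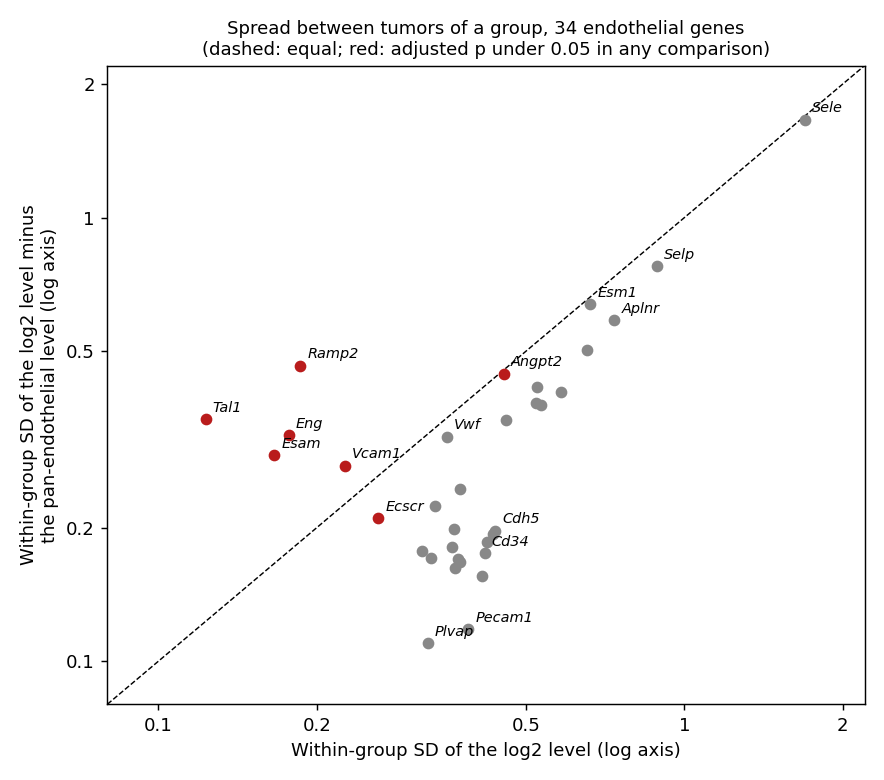
Within-group SD of the log2 level of each of the 34 genes (horizontal log axis) against the SD after subtracting the pan-endothelial level of the same tumor (vertical log axis), with equality dashed and genes called in any comparison in red. *Tal1*, *Ramp2*, *Eng*, *Esam* and *Vcam1* lay above the dashed line, and the other 29 genes below it.

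Levels per kilobase of merged exons ordered the genes differently from the counts. *Ramp2* was the highest in control tumors, at 3962 ± 198 normalized counts per kilobase, followed by *Plvap* at 1031 ± 281 and *Eng* at 809 ± 101. *Esam* (648 ± 47.8), *Tal1* (555 ± 49.6), *Ecscr* (468 ± 71.3), *Cdh5* (451 ± 122) and *Pecam1* (390.0 ± 131) came next. In this order *Plvap* and *Eng*, *Ecscr* and *Cdh5*, and *Cdh5* and *Pecam1* differed by less than the larger SD of the pair. The lowest were *Sox17* at 8.68 ± 2.40, *Selp* at 6.86 ± 4.34 and *Sele* at 2.32 ± 2.57. In clone 18 tumors *Tal1* was at 233 ± 26.4 and *Vcam1* at 64.7 ± 10.8, against 184 ± 24.0 for *Vcam1* in control.

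Upstream sequences were at hand for 17 of the 34 genes (RefSeq, GRCm38.p6), and the 250 bases before the start were searched on both strands for 4 short motifs. The ETS-type motif CAGGAAG, read as CTTCCTG on the other strand, was in 8 of the 17 genes, *Emcn*, *Cd34*, *Robo4*, *Egfl7*, *Apln*, *Erg*, *Rasip1* and *Sele*, and in 12.1% of all 27025 genes. The other ETS-type motif, CCGGAAG, was in 0 of the 17 and 7.83% of all genes. The SOX-type motif AACAAT, or ATTGTT on the other strand, was in *Emcn*, *Tek* and *Erg* and 10.9% of all genes, and the GATA-type motif AGATAA, or TTATCT on the other strand, in *Erg* and *Tal1* and 11.4%. The matches are letters in a window and not sites shown to be bound. The sequences of *Emcn* (chr3:137340828-137341077, plus strand), *Cd34* (chr1:194938571-194938820, plus) and *Robo4* (chr9:37401722-37401971, plus) are shown because they hold the ETS-type motif and their SD became smaller relative to the pan-endothelial level. *Erg* (chr16:95459349-95459598, minus, the most 3′ of its 3 starts) is shown for its matches to 3 motifs. *Eng* (chr2:32646345-32646594, plus) and *Tal1* (chr4:115056176-115056425, plus, the first of its 2 starts) are shown because they fell in both clones. Capitals mark the motifs, and each line runs 5′ to 3′ on the gene's strand.
Emcn: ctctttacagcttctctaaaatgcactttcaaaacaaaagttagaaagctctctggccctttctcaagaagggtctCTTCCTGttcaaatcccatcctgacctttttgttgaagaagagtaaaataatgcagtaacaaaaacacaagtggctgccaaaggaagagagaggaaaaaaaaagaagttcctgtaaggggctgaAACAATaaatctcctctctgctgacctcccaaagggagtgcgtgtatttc
Cd34: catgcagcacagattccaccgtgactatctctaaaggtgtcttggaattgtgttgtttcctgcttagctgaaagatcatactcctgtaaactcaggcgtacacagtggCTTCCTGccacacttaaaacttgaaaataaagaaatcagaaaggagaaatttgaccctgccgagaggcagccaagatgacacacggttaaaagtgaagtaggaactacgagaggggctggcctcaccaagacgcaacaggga
Robo4: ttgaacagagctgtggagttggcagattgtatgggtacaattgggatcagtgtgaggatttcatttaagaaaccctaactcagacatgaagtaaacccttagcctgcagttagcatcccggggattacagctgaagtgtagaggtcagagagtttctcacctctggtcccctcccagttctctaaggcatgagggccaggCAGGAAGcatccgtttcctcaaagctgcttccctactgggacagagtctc
Erg: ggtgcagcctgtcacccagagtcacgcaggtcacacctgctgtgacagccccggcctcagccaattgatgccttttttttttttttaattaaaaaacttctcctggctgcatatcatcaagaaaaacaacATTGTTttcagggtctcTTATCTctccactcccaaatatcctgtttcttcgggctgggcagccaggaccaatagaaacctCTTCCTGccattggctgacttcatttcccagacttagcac
Eng: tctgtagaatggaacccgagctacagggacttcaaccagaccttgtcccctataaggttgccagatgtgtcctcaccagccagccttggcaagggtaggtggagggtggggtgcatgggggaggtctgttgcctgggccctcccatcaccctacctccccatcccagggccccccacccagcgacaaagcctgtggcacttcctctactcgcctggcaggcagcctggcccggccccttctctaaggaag
Tal1: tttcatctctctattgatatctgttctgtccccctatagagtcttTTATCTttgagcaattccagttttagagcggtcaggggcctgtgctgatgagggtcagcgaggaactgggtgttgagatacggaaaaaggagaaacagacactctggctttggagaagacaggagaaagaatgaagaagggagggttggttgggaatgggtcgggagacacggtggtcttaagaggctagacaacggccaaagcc

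A second list of 34 endothelial genes that are not among the first gave the wider pathway. In knockout tumors 3 of them fell, 1 rose and 30 were not called, and these shares are below the 12.9% lower and 9.23% higher over all genes. *Acvrl1*, which encodes ALK1, the BMP9 receptor that works with endoglin, had 1095.5, 1196.9, 1082.2, 1218.0 and 867.0 normalized counts in control tumors. It had 504.3, 585.8, 474.5, 473.3 and 792.0 in clone 4 and 593.9, 625.0, 540.6, 600.4 and 559.8 in clone 18. All knockout tumors were below all control tumors, and the difference was -0.93 ± 0.11 (limma, adjusted p = 1.51e-05), with -0.965 in clone 4 and -0.89 in clone 18. *Lyl1*, a close relative of *Tal1*, fell by 0.55 on the log2 scale, from 460 ± 109 to 308 ± 33.7 (limma, adjusted p = 0.00505). *Nrp1*, a VEGF and semaphorin co-receptor, fell by 0.33 (adjusted p = 0.0412), and *Jag1*, a Notch ligand that opposes DLL4 in sprouts, rose by 0.38 (limma, adjusted p = 0.0136). In clone 4 alone *Acvrl1* and *Lyl1* fell and none rose, 2 and 0 of 34 beside 10.0% and 6.79% of all genes. In clone 18 alone these 2, *Nrp1* and *Podxl* fell, and *Jag1* and *Klf2* rose, 4 and 2 of 34 beside 14.2% and 10.4% of all genes. *Klf2*, a flow-induced factor, was at 848 ± 64.8 in control, 788 ± 59.0 in clone 4 and 1403 ± 143 in clone 18 tumors. It was the only one of the second list called between the clones (0.83; limma, adjusted p = 7.99e-06). That is 1 of 34 higher in clone 18, beside 2.49% of all genes, and 0 lower, beside 2.13%.

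Genes of the cells around endothelium were counted as well, beside 12.9% lower and 9.23% higher over all genes in knockout against control. Of 9 pericyte and vascular smooth muscle genes, 1 rose in knockout tumors, and the summed list overlapped between control (11799.3 to 20481.7) and knockout tumors (14402.2 to 22526.5). None of the 5 lymphatic endothelial genes was called in knockout against control, and 1, *Pdpn*, rose in clone 18 (0.354; limma, adjusted p = 0.042), beside 10.4% of all genes. In clone 18, 3 of the 5 differences were negative and 2 positive. *Pdpn* averaged 9217 ± 1050 normalized counts in control tumors, whereas *Prox1*, of the same list, had 0 to 4 reads there. The platelet list had 1 of 4 measured genes higher. Of 5 leukocyte genes, 2 fell, and the summed list ran from 16293.9 to 27219.8 in control and from 13562.2 to 21747.8 in knockout tumors.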

How the data were processed

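RNA from 5 control, 5 clone 4 and 5 clone 18 tumors was measured by bulk RNA sequencing. Reads had been aligned to mm10 with tophat2 and counted per gene with HTSeq, and the signal the authors deposited is that count over a DESeq size factor of the tumor, to 0.1. Tool versions, annotation, strand setting and gene filter are not given in the sources used here. Values were multiples of 1 step per tumor (within 0.1 of a step), so whole reads were recovered for count tests. Of 18279 genes, 29 were at 0 in all tumors and 18250 were tested.

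The log2(value + 1) scale was used with limma 3.58.1 (trend, R 4.3.3) and Benjamini-Hochberg adjustment over all genes, at 0.05. Alternatives were pseudocounts of 0.1 and 5, a mean of at least 10, upper-quartile and quantile scaling, limma without trend, edgeR 4.0.16, DESeq2 1.42.0, a two-sample test with equal variances, and leaving out each tumor. Leaving out the 5 muscle-rich tumors and the pan-endothelial covariate were chosen after seeing the data. The members and lists were chosen with earlier results of these data known. Values in every tumor are given for *Pecam1*, *Cdh5*, *Vwf* and each gene called in any comparison, and genes of the second list are named where called. *Csf1r*, *Cd68*, *Itga2b*, *Slc4a1*, *Pdpn*, *Prox1* and the genes named for their spread or motifs were chosen after their values were seen. Positions and exon lengths are from GENCODE vM21 (GRCm38, the build of mm10). The scripts were tested on simulated data. Low read numbers limit *Sele* (0 to 21 reads per tumor) and *Selp* (6 to 68).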

Additional observations from a re-analysis of the deposited data

Results flagged for a closer look

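In 135 sets of 5 tumors (each gene or marker list within a group), 6 had a tumor far from the other 4, where chance gives about 1 in 20, or 6.8. In clone 18, tumor 13 had 591.7 normalized counts of *Ecscr* against 476.9 to 503.2 in the others. Tumor 14 had 492.2 of *Nos3* against 370.6 to 386.3. The other 4 were marker sums. The skeletal muscle sum was 211.3 in control tumor 1 against 75.0 to 98.3. The red cell sum was 5075.8 in clone 4 tumor 8 against 3476.3 to 3898.1. The keratinocyte sum was 20.0 in clone 18 tumor 14 against 0.0 to 4.1. The proliferation sum was 57265 in clone 18 tumor 12 against 43426.2 to 45915.9.

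The difference from the same control tumors was not alike in the 2 clones for *Tal1*, which was lower in clone 18 than in clone 4 by -0.848 on the log2 scale, and for *Vcam1*, lower by -1.098, both from the limma test between the clones (adjusted p = 4.44e-06 and 6.15e-05), in 5 of 5 tumors each. With 1 line per clone, the knockout and other differences between the lines cannot be told apart.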

How the results depend on the processing

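The 4 falls in knockout against control tumors, *Ecscr*, *Eng*, *Tal1* and *Vcam1*, held in 26 of 26 alternatives, with log2 differences of -0.778 to -0.60, -0.529 to -0.42, -0.882 to -0.752 and -1.07 to -0.836. The count of genes higher in knockout tumors, 0 in the reported fit, was 1 with upper-quartile scaling and with the pan-endothelial covariate and 2 with quantile normalization, edgeR and DESeq2, and 0 to 2 when 1 tumor was left out (1 without tumor 3, 7 or 8 and 2 without tumor 6). For clone 18 it was 1 to 3 (1 without tumor 1, 2 or 15), and between the clones 0 to 1 (1 without tumor 9). Among the genes lower in clone 18, *Plvap* and *Vwf* were added with the pan-endothelial covariate. No paired analysis was possible because tumors are numbered 1 to 15 across the groups.

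The reversals concerned genes that were not called, with reported differences from -0.312 (*Sele*) to 0.192 (*Sox18*), and the cause was not tested. Leaving out 1 tumor gave -0.014 to 0.321 for *Pecam1*, -0.067 to 0.116 for *Cldn5*, -0.053 to 0.308 for *Icam2*, -0.23 to 0.101 for *Emcn*, -0.103 to 0.247 for *Cd34*, -0.219 to 0.122 for *Clec14a*, -0.193 to 0.078 for *Plvap* and -0.172 to 0.249 for *Tek*. It gave -0.016 to 0.303 for *Tie1*, -0.14 to 0.087 for *Ptprb*, -0.113 to 0.139 for *Mmrn2*, -0.436 to 0.051 for *Aplnr*, -0.094 to 0.161 for *Sox17*, -0.032 to 0.362 for *Sox18* and -0.905 to 0.185 for *Sele*. Without the 5 muscle-rich tumors, *Cdh5* was at -0.04, *Cldn5* at -0.307, *Cd34* at -0.043, *Aplnr* at 0.032, *Sox17* at -0.335 and *Sele* at 0.172. With the covariate, *Cldn5* was at -0.172, *Cd34* at -0.109, *Tek* at -0.135 and *Sox17* at -0.156. *Clec14a* was at 0.028 with quantile normalization, *Tek* at -0.064 with edgeR and -0.076 with DESeq2. *Mmrn2* was at 0.022 with upper-quartile scaling, 0.028 with quantile normalization, 0.016 with edgeR and 0.003 with DESeq2. With 5 tumors a group and a spread of 0.4 or more on the log2 scale for many of these genes, small differences could not be seen.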
